A study of Ovis aries with 56 samples.

Results

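The left amygdala of rams given an agonist of gonadotropin-releasing hormone (GnRH) was compared with that of untreated rams. Of the 14 male left arrays of the series, 11 were used, among 41 used of 56 in all. They were chosen by their added spike-in RNAs, whose log2 ratios had to follow those of the other arrays with an absolute slope of at least 0.5. The control group held 5 arrays (replicates 1 to 5) and the GnRHa group 6 (replicates 1, 2, 3, 5, 6 and 7), each of a different animal. Control replicates 6 and 7 and GnRHa replicate 4 failed the slope minimum.

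All animals were Scottish Mule Texel Cross Breed sheep aged 50 weeks, and each treated ram had an untreated male twin as its control. Treated rams carried implants of goserelin acetate (Zoladex, 3.6 mg), renewed at intervals of 4 weeks from an age of 8 weeks. Control rams are labelled as untreated, and no sham implant is mentioned. Total RNA of 1 left amygdala was hybridized on each 2-colour array against a pool of amygdala RNA. The right amygdala of rams (4 control and 6 GnRHa arrays) and the left amygdala of ewes (5 and 5 arrays, treated from 28 weeks) served for comparison. Treatment therefore lasted longer in rams, and sex and duration of treatment cannot be told apart.

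GnRH is released by hypothalamic neurons and drives the pituitary to secrete luteinizing and follicle-stimulating hormone, which in turn drive testosterone synthesis in the testis. A brief pulse of agonist stimulates this axis, whereas its continued presence desensitizes the pituitary receptor and lowers gonadotropin and steroid output. The amygdala takes part in fear, social and sexual behaviour. It contains neurons with receptors for sex steroids and for GnRH, so it can in principle respond to lost steroids and to the agonist itself.

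Every value below is a log2 ratio of the sample to the pool, and differences are GnRHa minus control in log2 units. They were fitted with dye as a term, so they can depart from the difference of the group means printed beside them. Spike-in slopes of the 11 arrays lay between 1.01 and 1.09 in absolute size, and their medians over all probes between -0.02 and 0.02. Between 4.40 and 19.4% of probes had no value on an array. The sample was labelled with Cy5 in control replicate 1 and GnRHa replicates 1 and 2, and with Cy3 in the others. GnRHa replicate 6 had a negative slope, so its values were multiplied by -1 and its labelled Cy5 was taken as Cy3. After this turn it correlated with the other 3 Cy3 arrays of its group at 0.290 to 0.302 across probes. All 4 Cy3 arrays of the GnRHa group correlated with one another at 0.249 to 0.435, but with its 2 Cy5 arrays at only -0.243 to 0.160. The Cy3 arrays of treated rams thus stood apart from the 2 Cy5 arrays, which correlated with each other at only 0.123. Control arrays of unlike dye correlated at -0.0013 to 0.0656, within the range of -0.018 to 0.296 among the Cy3 controls. The probe FE028749 read 0.77 to 1.19 on all 11 arrays, against -5.66 to -2.60 in ewes, so none went against its label for sex.

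Many values were not distinct. Between 60.3 and 71.4% of the values on an array were identical to 6 decimals with that of another probe. Sharing was concentrated in dim probes. In the authors' deposited table, whose mean log2 brightness covers all groups, probes under a brightness of 5.5 shared 98.8% of their values, against 14.9% for the 4119 tested probes at 6.5 or more. Values beyond 2 in absolute size numbered 192 to 279 on the control arrays, 186 on GnRHa replicate 2 and 341 on GnRHa replicate 1. They numbered 379 to 585 on the other 4 GnRHa arrays, on which 88.7 to 95.4% of them were shared values.

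Few probes separated treated from control rams, and nearly all of those that did lacked a gene name. In the fit with limma over all 41 arrays, 47 of 12930 probes (0.363%) differed at an adjusted p under 0.05. Of these, 23 rose (0.178% of the probes tested) and 24 fell (0.186%). Unadjusted, 1977 probes (15.3%) had a p under 0.05. A gene name could be given to 2 of the 47, a probe of TRPM7 and a probe of SRSF3, although 741 named genes were tested. The groups did not overlap in 353 probes (2.73% of those tested), with 207 higher (1.6%) and 146 lower (1.13%), and in 31 of the 47. Among the 10055 probes with values on all 11 arrays they did not overlap in 175 (1.74%).

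TRPM7, a cation channel of the plasma membrane that also carries a kinase domain and passes magnesium and zinc, fell with treatment. Control replicates 1 to 5 read 0.72, 0.74, 0.97, 0.78 and 1.89. The GnRHa arrays ran from -1.32 through a median of -0.01 to 0.35. Every GnRHa array lay below every control array. The means were 1.02 ± 0.50 (SD, n = 5) and -0.16 ± 0.60 (SD, n = 6), a difference of -1.13 ± 0.25 (SE, limma adjusted p = 0.0361). The treated twin was lower by 0.78, 1.14 and 0.58 in the 3 complete twin pairs. Twin differences, here and below, are raw. In the first 2 pairs a Cy3 control met a Cy5 treated twin, so treatment and dye are mixed there. All 11 TRPM7 values of this probe were shared with other probes, a median of 9 of them. A dimmer TRPM7 probe differed by -0.31 (adjusted p = 0.695), and with twin pair as a fixed term over all arrays the brighter probe differed by -0.67 (adjusted p = 0.394). Without GnRHa replicate 6 its difference was -0.84 (adjusted p = 0.0975), and 5 of the 11 fits without 1 array kept the call. It was also lost without control replicate 1, 3, 4 or 5 or GnRHa replicate 7 (adjusted p of 0.0526 to 0.0635).

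SRSF3 encodes a small SR protein that binds RNA and takes part in splicing and in export of mRNA from the nucleus. The dimmer of its 2 probes, singled out after its values were seen, fell. It read 0.92, 0.68, 0.87, 0.90 and 0.24 in control replicates 1 to 5, and -0.50 to 0.14 with a median of -0.04 in the GnRHa arrays. The groups did not overlap, and the 3 treated twins lay lower by 0.78, 0.83 and 0.76, close to one another. The first 2 of these pairs had unlike dyes. Group means were 0.72 ± 0.29 (SD, n = 5) and -0.10 ± 0.23 (SD, n = 6), a difference of -0.83 ± 0.18 (SE, limma adjusted p = 0.0374). With twin pair as a fixed term over all arrays it stayed past the threshold, at -0.87 (adjusted p = 0.0450). Within the Cy3 arrays alone the difference was -0.81 (adjusted p = 0.214). The Cy5 arrays, 1 control and 2 GnRHa, gave -0.95 (adjusted p = 0.308), which rests on a lone control array. Of the 11 fits without 1 array, 5 kept the call. It was lost without control replicate 1, 3 or 4 or GnRHa replicate 1, 6 or 7 (adjusted p of 0.0669 to 0.107). The brighter SRSF3 probe, the one that stands for the gene in counts of genes, pointed the same way but did not pass (-0.52 ± 0.18, adjusted p = 0.151). Its twin differences were -0.30, -0.42 and -0.50.

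**Figure D1:**
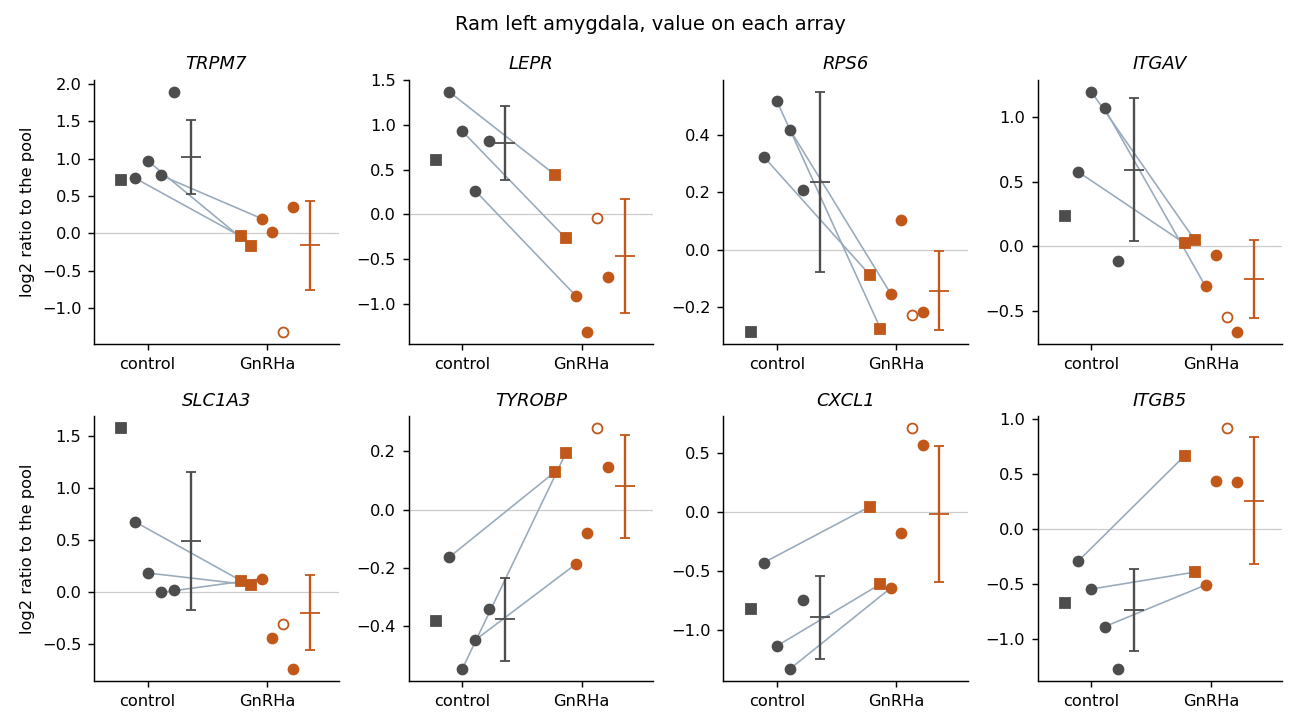
Log2 ratio to the pool (vertical axis) on each of the 11 male left arrays for 8 genes, with 5 control and 6 GnRHa arrays as points (squares Cy5, circles Cy3, open circle the turned array), lines joining complete twin pairs, and mean and SD as bars beside them. TRPM7 alone of the 8 shows no overlap between groups, and its highest control array (1.89) and lowest GnRHa array (-1.32) lie apart from the rest of their groups.

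The other 45 probes that differed had no gene name. Of these, 4 are described, 2 in each direction, and they do not span the range of the 47. Their absolute differences, 0.68 to 1.44, compare with a median of 1.44 and a largest of 2.90 over the 47. Their brightness of 6.02 to 6.79 in the authors' deposited table compares with a median of 5.80. EE794847, of lower p than FE024000, is dimmer (5.48), rose by 2.42 ± 0.46 (SE), and all 11 of its values were shared. FE034931 rose from -2.01, -0.23, -1.71, -1.37 and -1.08 in control replicates 1 to 5 to between -0.44 and 0.64 in the GnRHa arrays. The groups overlapped through control replicate 2, and the difference was 1.44 ± 0.25 (SE, adjusted p = 0.00897). All 11 FE034931 values were shared with other probes, and its twin differences were -0.21, 2.08 and 1.35. FE024000 rose without overlap, from between -0.91 and -0.30 in controls to between -0.18 and 0.40, by 0.68 ± 0.14 (adjusted p = 0.0234).

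EE803579 fell from 0.71, 0.75, 0.96, 1.06 and 0.55 to between -0.81 and 0.39, without overlap, by 1.07 ± 0.18 (SE, adjusted p = 0.00897). Its call held in 10 of the 11 fits without 1 array, the most that any of the 47 probes reached, and was lost without GnRHa replicate 7 (adjusted p = 0.0552). EE826766 fell from between 0.20 and 0.95 to between -0.21 and 0.05, also without overlap, by 0.69 ± 0.13 (adjusted p = 0.0212). Of its 11 values, 9 were shared with other probes, against 4 for FE024000 and 4 for EE803579. FE034931 missed the threshold without control replicate 3 or GnRHa replicate 7, FE024000 without control replicate 3 or 4 or GnRHa replicate 6 or 7, and EE826766 without control replicate 3 or GnRHa replicate 6 or 7 (adjusted p of 0.0512 to 0.0737). With twin pair as a fixed term over all arrays, FE034931 (adjusted p = 0.0388) and EE803579 (adjusted p = 0.0347) passed and FE024000 (adjusted p = 0.111) and EE826766 (adjusted p = 0.0682) did not.

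The 47 probes were slightly dimmer in median than all tested probes, and their differences, which entered the choice, were larger. Their median brightness was 5.80 against 5.95 over all tested probes in the authors' deposited table, and their median absolute difference 1.44 against 0.24. They had values on 7 to 11 arrays, of which a median of 10 values per probe were shared with other probes. By brightness in the authors' deposited table, 8 of 2983 probes passed below 5.5 (0.268%), 24 of 3757 from 5.5 to 6 (0.639%), 9 of 2071 from 6 to 6.5 (0.435%) and 6 of 4119 at 6.5 or more (0.146%). The share was thus highest from 5.5 to 6, and not in the dimmest probes. When only those 4119 brighter probes were fitted, 1 probe passed, FE024000 (adjusted p = 0.0407), and the dimmer SRSF3 probe had an adjusted p of 0.0508. This restriction was chosen after the data were seen. The part of dim or shared values in the count of 47 was not tested further.

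**Figure D2:**
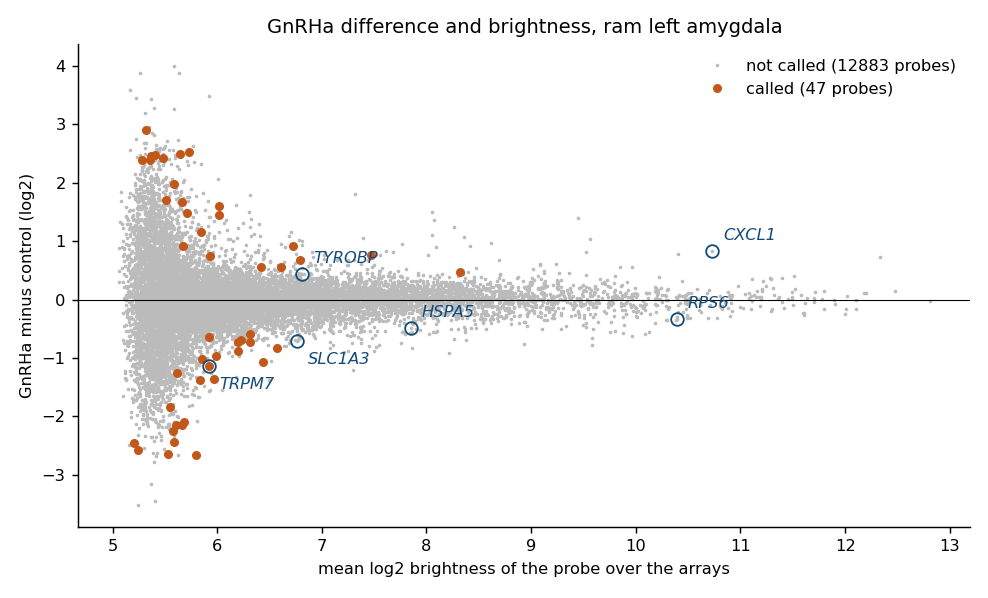
Difference between GnRHa and control in the ram left amygdala (vertical axis, log2) against mean log2 brightness from the authors' deposited table (horizontal axis) for all 12930 probes, with the 47 that passed filled in orange and 6 named genes ringed. Of the 47, 41 lie below a brightness of 6.5, as do most of the 12930 probes, and there the spread of all probes is widest.

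Single arrays decided how many probes passed. When each array was left out in turn, none of the 47 passed in all 11 fits, and the median was 4 fits. The count was 0 without GnRHa replicate 7, 1 without control replicate 3, 3 without GnRHa replicate 6, 8 without control replicate 4 and 16 without GnRHa replicate 1. It was 96 without control replicate 5, and 42 to 62 without any 1 of the other 5 arrays. Directions held better than calls. Of the 47 probes, 46 could be compared within the Cy3 arrays and all 46 kept their direction, and 41 could be within the 3 Cy5 arrays, with a lone control, and all 41 kept it. All 3 complete twin pairs went the same way for 34 of the 38 probes with values in each. These agreements describe the arrays that chose the probes and are no separate evidence. With twin pair as a fixed term over all arrays 40 probes passed, of which 16 were among the 47.

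**Figure D3:**
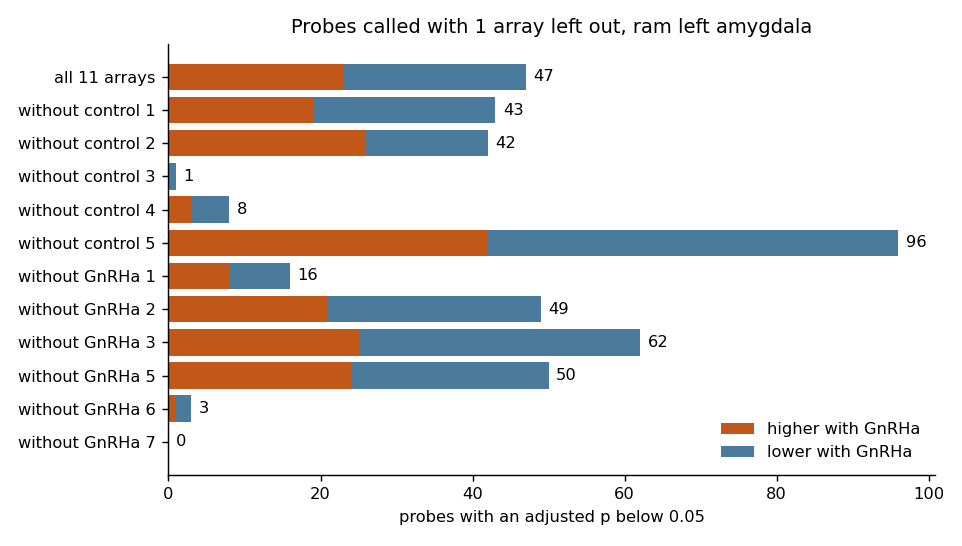
Number of probes past an adjusted p of 0.05 in the ram left amygdala (horizontal axis) with all 11 arrays and with each left out in turn, as stacked bars of probes higher and lower with GnRHa. The count of 47 ranges from 0 without GnRHa replicate 7 to 96 without control replicate 5.

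Below the threshold, the named gene with the lowest adjusted p among those with higher values was TYROBP, a signalling adaptor of microglia and other myeloid cells. Control replicates 1 to 5 read -0.38, -0.16, -0.55, -0.45 and -0.34, and the GnRHa arrays -0.19 to 0.28 with a median of 0.14. The groups touched only through GnRHa replicate 3 and control replicate 2. The difference was 0.45 ± 0.11 (SE, limma adjusted p = 0.0544), and it passed without control replicate 2 (adjusted p = 0.0481) or GnRHa replicate 3 (adjusted p = 0.0410). It also passed with twin pair as a random block (adjusted p = 0.0449), but not with twin pair as a fixed term over all arrays (adjusted p = 0.166). A second TYROBP probe differed by 0.09.

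Microglia and macrophage genes were divided in direction. Of 7 tested, 3 had higher and 4 lower values with a median difference of -0.18, against 0.01 over all probes, and 0 passed (6644 probes were higher and 6286 lower in all). CTSS, a lysosomal protease of these cells, differed by -0.37 ± 0.24. B2M, the light chain of class I histocompatibility molecules, differed by -0.38 ± 0.29. The mean log2 ratio of the microglia list ran from -0.23 to 0.26 on the control arrays and from -0.39 to 0.23 on the GnRHa arrays. In bulk tissue, fewer cells of a type and less RNA per cell cannot be told apart.

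CXCL1, a chemokine that attracts neutrophils, had a brightness of 10.7 in the authors' deposited table and no shared values. Control replicates 1 to 5 read -0.82, -0.43, -1.13, -1.33 and -0.74, and the GnRHa arrays -0.64 to 0.71 with a median of -0.06. GnRHa replicates 2 and 3 lay within the control range. The difference of 0.83 ± 0.25 (SE) did not pass (adjusted p = 0.107), and its other probe gave 0.77 (adjusted p = 0.107). Treated twins were higher by 0.48, 0.52 and 0.69. On the right the CXCL1 difference was 0.63 ± 0.27. Cytokine and chemokine genes as a list were split, with 10 higher and 9 lower of 19, a median of 0.12 and 0 that passed.

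Other genes with higher values but no call included ITGB5 and SPRY2. ITGB5, the beta 5 integrin subunit that pairs with alpha V in a vitronectin receptor, ran from -1.27 to -0.29 in controls and from -0.51 to 0.92 in treated rams. Its difference was 0.92 ± 0.29 (adjusted p = 0.122), with 0.79 from another probe. SPRY2, an inhibitor of receptor tyrosine kinase signalling, differed by 0.65 ± 0.22 (adjusted p = 0.142). EEF1D, a subunit of the translation elongation factor 1 complex, differed by 0.41 ± 0.15 (adjusted p = 0.194), and PFKM, the muscle form of phosphofructokinase in glycolysis, by 0.31 ± 0.14 (adjusted p = 0.280).

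LEPR, the leptin receptor, through which adipose tissue signals energy stores to the brain, had lower values in treated rams. Control replicates 1 to 5 read 0.61, 1.37, 0.93, 0.26 and 0.81, and the GnRHa arrays -1.32 to 0.44 with a median of -0.49. GnRHa replicate 1 lay above control replicate 4, and the other 5 lay below all controls. The difference was -1.32 ± 0.33 (SE, limma adjusted p = 0.0570), and the treated twins were lower by 0.93, 1.20 and 1.18. The call depended on the model, since the adjusted p was 0.0456 with twin pair as a random block and 0.0156 with array weights. LEPR did not pass with twin pair as a fixed term over all arrays (-1.36, adjusted p = 0.104). Nor did the mean of its probes (-0.85, adjusted p = 0.162). It passed in 0 of the 11 fits without 1 array (lowest adjusted p of 0.0539). Of the other 4 LEPR probes, 3 pointed the same way (-1.32, -0.75 and -0.66) and 1 did not (0.12).

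Members of the transforming growth factor beta (TGF-beta) and activin pathway took several of the next places, all with lower values. Its ligands bind receptor kinases, which phosphorylate SMAD proteins that then enter the nucleus. Activins, which signal this way, also raise follicle-stimulating hormone in the pituitary. TGFBR1, a type I receptor, ran from -0.66 to 0.97 in controls and from -1.84 to -0.22 in treated rams, a difference of -1.40 ± 0.37 (adjusted p = 0.0825). ACVR1, a type I receptor for activins and bone morphogenetic proteins, differed by -0.62 ± 0.18 (adjusted p = 0.107), and SMAD5, which carries the bone morphogenetic protein signal, by -0.83 ± 0.24 (adjusted p = 0.107). Second probes gave weaker differences, -0.93 for TGFBR1 (adjusted p = 0.311) and -0.46 for ACVR1 (adjusted p = 0.454).

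The list of TGF-beta and bone morphogenetic protein signalling, which includes TGFBR1 and SMAD5, was divided. Of its 17 tested genes, 8 had higher and 9 lower values, with a median of -0.14 and 0 that passed. Unadjusted, 5 lower and 2 higher ones had a p under 0.05, 7 of 17, against 15.3% of all probes. The 2 higher ones were BMP4, at 1.54 ± 0.67 (limma adjusted p = 0.270), and SMAD3, at 1.55 ± 0.73 (adjusted p = 0.309). Both are dim, at 5.57 and 5.48 in the authors' deposited table. SMAD4, the partner shared by the signalling SMADs, differed by -0.50 ± 0.21 (adjusted p = 0.244), the ligand TGFB2 by -0.53 ± 0.23, and the type II receptor ACVR2A by -0.50 ± 0.23. Second probes gave -0.18 for SMAD4 (adjusted p = 0.885) and -0.25 for ACVR2A (adjusted p = 0.672). ACVR1 and ACVR2A are counted in the list of GnRH and gonadotropin signalling instead. TGFBR1, SMAD5, ACVR1, SMAD4 and ACVR2A are dim, between 5.61 and 5.86 in the authors' deposited table, and all values of TGFBR1 and SMAD5 were shared with other probes.

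Further genes with lower values belonged to no common list. ITGAV, the alpha V integrin subunit, ran from -0.12 to 1.20 in controls and from -0.67 to 0.04 in treated rams, a difference of -0.80 ± 0.24 (adjusted p = 0.107), with -0.69 from another probe. It passed without control replicate 5 (adjusted p = 0.0405). Its sign is opposite to that of its partner ITGB5. The integrin and matrix list held 10 higher and 5 lower genes of 15, with a median of 0.29 and 0 that passed. IKBKB, a kinase that releases the transcription factor NF-kappa-B, differed by -2.16 ± 0.59 (adjusted p = 0.0876). That value came mainly from GnRHa replicates 3, 5, 6 and 7, at -2.69 to -1.95, while replicates 1 and 2 (-0.51 and 0.13) lay among the controls. The former are the Cy3 arrays of the group and the latter its Cy5 arrays. Within Cy3 arrays IKBKB differed by -2.70, and within Cy5 arrays, with a lone control, by -0.49. Its probe is dim (5.34), and probes under 5.5 shared 98.8% of their values. Another IKBKB probe gave -1.21 (adjusted p = 0.286). A gene listed in the files as PPLBC differed by -0.86 ± 0.22 (adjusted p = 0.0704), and passed without control replicate 5 (adjusted p = 0.0216).

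Genes of the axis that goserelin acts on were split between directions. Of 21 tested genes of GnRH and gonadotropin signalling, 11 had higher and 10 lower values, with a median of 0.01 and 0 that passed. GNRHR, the receptor that goserelin binds, had values on only 5 arrays. Control replicates 3 and 5 read -0.38 and -0.72, and GnRHa replicates 1, 3 and 5 read 1.21, 2.31 and 2.08. The means were -0.55 and 1.87, and the fitted difference with the dye term, 3.25 ± 0.87, did not pass (adjusted p = 0.107). Its values were shared with a median of 117 other probes, and a second GNRHR probe differed by 1.07 (adjusted p = 0.50), so its level could not be established here.

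Steroid receptors and steroid enzymes likewise held no call. Of 12 tested genes, 6 were higher and 6 lower, with a median of 0.10. ESR1, oestrogen receptor alpha, ran from -2.74 to 0.21 in controls and from -2.39 to 1.72 in treated rams, with wide overlap. It had a difference of 0.79 ± 0.85 (adjusted p = 0.70). With an error this wide, differences of its size and well above it could have been missed.

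NR3C1, the glucocorticoid receptor, was measured more closely and differed by -0.49 ± 0.24 (adjusted p = 0.322). PGR, the progesterone receptor, differed by 1.65 ± 0.70 (adjusted p = 0.264), with values on only 3 control arrays. HSD11B1, which regenerates active glucocorticoid in tissues, differed by 0.35 ± 0.27 (adjusted p = 0.556), but its dimmer probe by -0.73. INHBA, the subunit of activin A and of inhibin A, differed by -0.45 ± 0.31 (adjusted p = 0.512). POMC, the precursor of corticotropin and endorphin, differed by 0.47 ± 0.23 (adjusted p = 0.333).

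All 9 tested genes of glutamate receptors and transport had lower values in treated rams by their brightest probe, though none passed. Their median difference was -0.43, against 0.01 over all probes. Unadjusted, 2 of the 9 had a p under 0.05, against 15.3% of all probes. SLC1A3, a glutamate transporter of astrocytes that clears the transmitter from synapses, differed by -0.70 ± 0.26 (adjusted p = 0.197), with -0.74 from its other probe. Control replicates 1 to 5 read 1.57, 0.68, 0.19, 0.00 and 0.02, and the GnRHa arrays -0.74 to 0.13 with a median of -0.12. The high control mean rested mainly on replicates 1 and 2. SLC1A2, the other main astrocyte transporter, differed by -0.47 ± 0.27 (adjusted p = 0.412), and its dimmer probes by -0.56 and 1.21. Of the AMPA receptor subunits, GRIA1 differed by -0.29 ± 0.19 and GRIA2 by -0.32 ± 0.22.

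The 4 astrocyte genes on the array were also all lower in value, with a median of -0.39 and 0 that passed, but both glutamate transporters stand in both lists. GFAP, the intermediate filament of astrocytes, differed by -0.30 ± 0.27 (adjusted p = 0.632), and AQP4, their water channel, by -0.12 ± 0.16. The mean log2 ratio of the 4 genes ran from -0.12 to 0.44 on the control arrays and from -0.50 to 0.29 on the GnRHa arrays, so the groups overlapped. Whether the share of astrocyte RNA moved with the glutamate genes was not tested. Brain tissue was represented, as AQP4 had a brightness of 9.74 and GRIA2 of 8.53 in the authors' deposited table. None of the neuron, oligodendrocyte or GABA genes listed had a named probe.

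Ribosomal protein genes tended to lower values, and none passed. Of 18 tested, 13 were lower and 5 higher, with a median of -0.21. Unadjusted, 2 of the 18, RPS6 and RPS15A, had a p under 0.05, against 15.3% of all probes. RPS6, a protein of the small subunit and a target of growth signals, read -0.29, 0.32, 0.52, 0.42 and 0.21 in control replicates 1 to 5 and -0.27 to 0.11 with a median of -0.19 in the GnRHa arrays. Control replicates 2 to 5 lay above all treated arrays, whereas control replicate 1, labelled with Cy5, lay below all of them. The difference was -0.33 ± 0.11 (adjusted p = 0.153), and within the Cy5 arrays alone it was 0.11. RPS15A differed by -0.32 ± 0.12 (adjusted p = 0.202), with 0.22 within the Cy5 arrays alone. Both genes were bright and shared no value with another probe.

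All 7 tested circadian clock genes had higher values by their brightest probe, also without a call. Their median difference was 0.14, against 0.01 over all probes, and 0 of 7 had an unadjusted p under 0.05. PER3, a repressor in the clock loop, differed by 0.98 ± 0.58, but its dimmer probe by -0.68, and the mean of both probes by 0.0566. CSNK1E, a kinase that marks PER proteins for degradation, differed by 0.14 ± 0.12. The hour at which tissue was taken is not given in the sources used here.

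**Figure D4:**
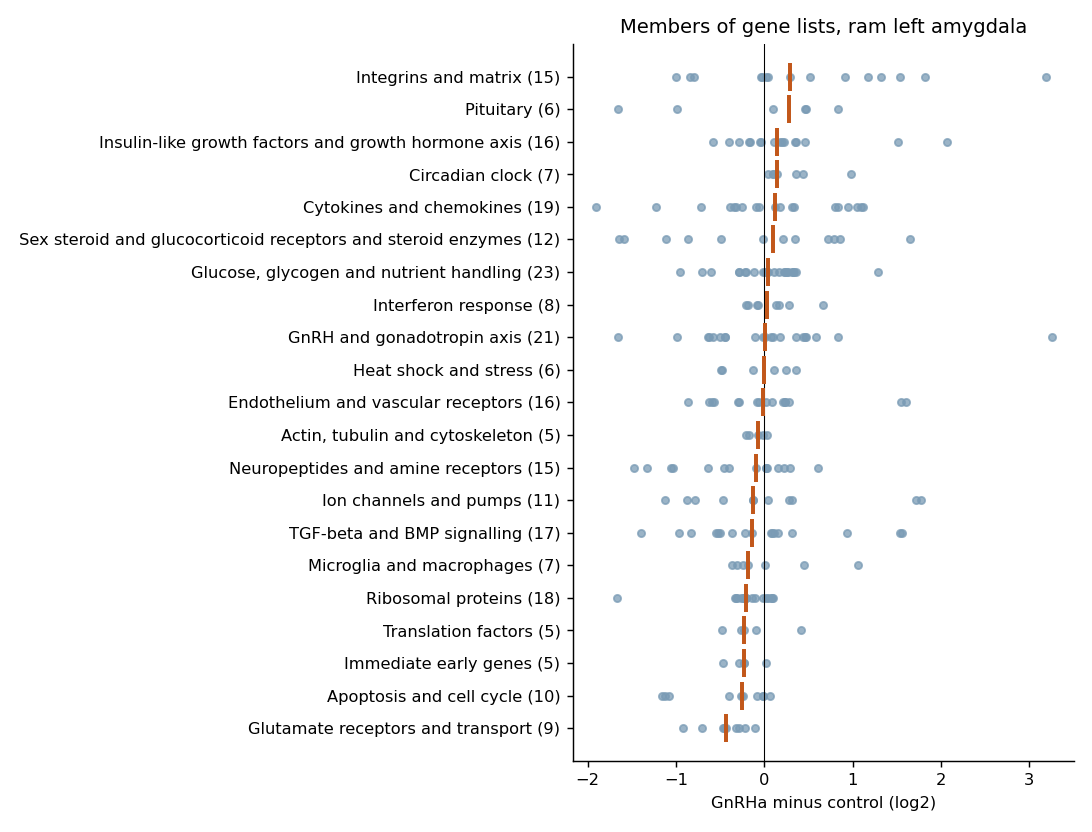
Differences between GnRHa and control (horizontal axis, log2) in the ram left amygdala of single genes as points, for gene lists with at least 5 tested genes (number in brackets), with the list median as an orange bar. The 9 glutamate genes lie below 0 with a median of -0.43 and the 7 clock genes above 0 with a median of 0.14, while most other lists lie on both sides of 0.

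The remaining lists held no call apart from TRPM7, 1 of 11 tested genes of ion channels and pumps (5 higher, 6 lower, median -0.12). With 0.363% of all probes and 1 of 741 named genes called, nothing about a list can be read from 0 or 1 call. Apoptosis and cell cycle genes had 9 lower of 10, with a median of -0.25. Of these 10, 0 had an unadjusted p under 0.05, against 15.3% of all probes. Immediate early genes had 4 lower of 5, and among them JUN, a transcription factor induced by activity and stress, differed by -0.29 ± 0.12 (adjusted p = 0.248). The 6 heat shock and stress genes were split evenly, and HSPA5, a chaperone of the endoplasmic reticulum, differed by -0.49 ± 0.19 (adjusted p = 0.203).

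Genes of endothelium (8 higher, 8 lower, median -0.02), interferon response (4 and 4, median 0.03), neuropeptides and amine receptors (7 and 8, median -0.09) and glucose handling (14 and 9, median 0.04) were divided. Insulin-like growth factor and growth hormone genes were 9 higher and 7 lower, with a median of 0.15. TTR, which marks choroid plexus, varied widely within both groups, from -3.47 to 3.18 in controls and from -3.69 to 0.55 in treated rams. The 2 blood genes ranged in mean from -0.96 to 0.56 in controls and from -1.87 to 1.38 in treated rams. The 6 pituitary genes (4 higher, 2 lower) ranged in mean from -0.36 to 0.20 and from -0.22 to 0.51, those of endothelium from -0.22 to 0.40 and from -0.28 to 0.30, and the muscle gene TNNC2 from -1.84 to 1.71 and from -1.13 to 0.96. The part of these other cell types in the results was not tested.

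In the right amygdala of rams, 4 probes differed (0.0309% of those tested), 1 higher (0.00773%) and 3 lower (0.0232%), and 1124 (8.69%) had an unadjusted p under 0.05. Of the 4 probes, 0 were among the 47 of the left. On the right 29 of the 47 pointed the same way, with a median difference of 0.12 in the direction of the left. TRPM7 differed by -0.51 ± 0.29 and the dimmer SRSF3 probe by -0.28 ± 0.20 on the right. The difference between sides was tested as an interaction, in which 20 probes passed (0.155%), with 9 more positive (0.0696%) and 11 more negative (0.0851%) on the right, 4 of them among the 47. SRSF3 was not among them (0.56, adjusted p = 0.420). With twin pair as a fixed term over all arrays 0 probes passed on the right. The right and left arrays came in part from the same animals. On the right, the control arrays (replicates 1, 2, 3 and 5) were all labelled with Cy5. Left controls were Cy3 apart from replicate 1. The right GnRHa arrays were Cy3 in replicates 1 and 2 and Cy5 in replicates 3, 5, 6 (turned) and 7. Side and dye were thus largely confounded in controls, and the interaction rests on the dye term. Without that term 0 probes passed it.

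Named genes in which the sides differed were LMNB1, TGFBR1 and EPAS1. For LMNB1, lamin B1 of the nuclear envelope, control replicates 1, 2, 4 and 5 read 0.76, 1.54, 1.41 and 1.35 on the left. The GnRHa arrays with a value ran from -1.92 to -0.95 apart from replicate 2 at 1.99. The difference was -2.18 ± 0.66 on the left (adjusted p = 0.118, or 0.0453 without GnRHa replicate 2) and 2.43 on the right, an interaction of 4.61 ± 0.94 (adjusted p = 0.0365). For the dimmer TGFBR1 probe the values were -0.93 and 2.18, an interaction of 3.11 ± 0.63 (adjusted p = 0.0336). For 1 of 4 probes of EPAS1, a hypoxia-inducible transcription factor, it was 3.07 ± 0.67 (adjusted p = 0.0487), while the left differences of its 4 probes were -1.41, -0.86, -0.21 and 1.23. The probes of LMNB1, TGFBR1 and EPAS1 behind these interactions are dim, at 5.62, 5.43 and 5.46 in the authors' deposited table. Probes this dim shared most of their values with others. The count of 20 fell to 1 among the brighter probes, 5 without control replicate 5 or GnRHa replicate 6, 11 without GnRHa replicate 1 and 12 without control replicate 3.

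In the left amygdala of ewes, 0 probes passed (0.0%), and 647 (5.0%) had an unadjusted p under 0.05, with a lowest adjusted p of 0.859 by limma. In ewes 15 of the 47 probes pointed the way they did in rams. TRPM7 differed by 0.19 ± 0.25 and the dimmer SRSF3 probe by 0.19 ± 0.19 in ewes. The effect of treatment differed between the sexes in 3 probes (0.0232%), all unnamed. EE803579 was the only one of the 47 among them, with a difference of 0.47 ± 0.18 in ewes and an interaction of 1.54 ± 0.26 (adjusted p = 0.0102). With twin pair as a fixed term over all arrays the count of 3 was 10. It was 1 without control replicate 3 or GnRHa replicate 1 or 6, and 7 to 17 without control replicate 2 or 5 or GnRHa replicate 3 or 5. For SRSF3 the interaction was 1.02 (adjusted p = 0.123). The medians of the glutamate list were 0.14 on the ram right and 0.28 on the ewe left, and those of the clock list -0.0023 and -0.42. These differences between lists were not tested.

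**Figure D5:**
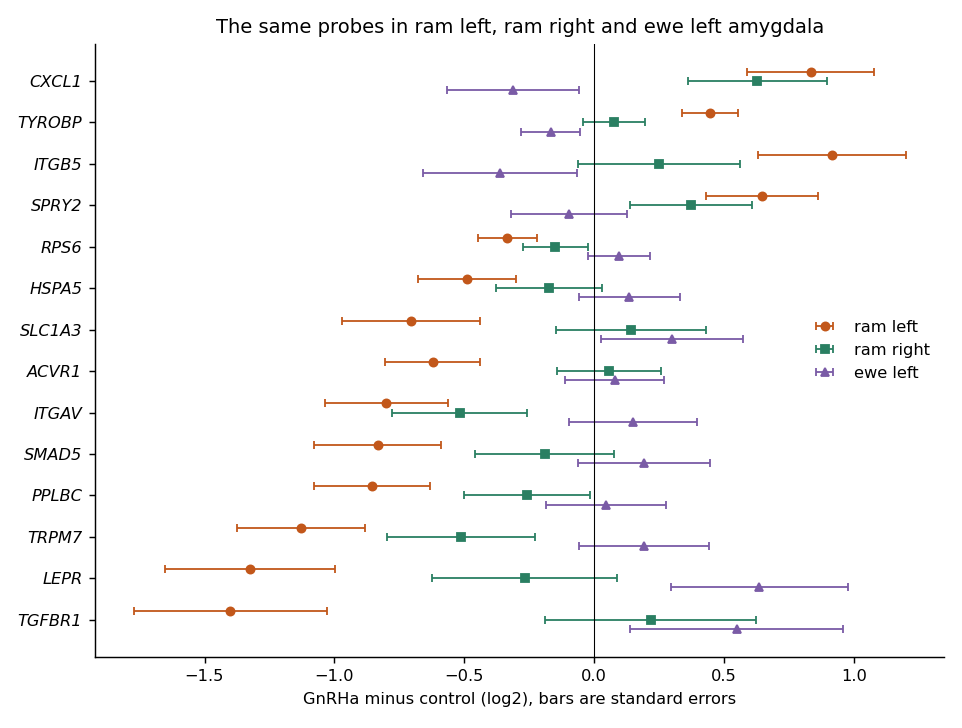
Difference between GnRHa and control with its SE (horizontal axis, log2) in the ram left (circles), ram right (squares) and ewe left (triangles) amygdala for 14 genes, 1 probe each. TRPM7 is at -1.13 on the ram left, -0.51 on the ram right and 0.19 in ewes, and CXCL1 lies above 0 on both sides in rams (0.83 and 0.63).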

How the data were processed

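The authors deposited log2 ratios of each sample to the pool, 1 per spot. Scanner signals had been read with Agilent Feature Extraction 9.1, per the submitters' processing notes. Background correction, normalization and direction of the ratios are not given in the sources used here. Tables of log2 fold changes and brightness per group were deposited too. Their brightness and annotation were used, and the deposited p-values were not. Depth cannot be given for arrays, and their number limits the precision.

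Control spots were left out and spots averaged into 15008 probes, 1476 with exactly 1 gene name (833 genes) and 13532 without. A test required 2 or more values of a probe in every one of the 8 groups. limma 3.58.1 in R 4.3.3 fitted a mean per group and sample dye to the 41 arrays, with animal as a random block (correlation 0.147). Moderated tests were two-sided, with Benjamini-Hochberg adjustment over all probes. Python 3.11.15, pandas 2.3.3 and numpy 2.4.6 were used. The fit was also run on simulated data, which held no shared values and so cannot show how such values affect it.

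The text names, by the brightest probe, the genes and unnamed probes of lowest p in each direction, up to 3 members per list, fixed receptor and enzyme genes and the top genes of the interactions. Not all of them are described. FE024000 is described although other unnamed probes that rose with treatment had a lower p. Members and lists were chosen with earlier results of these data known.

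Twins, per the labels, pair the samples. Deviations from the group means correlated at -0.10, -0.01 and 0.04 in the 3 complete pairs. Pairs 2 and 3 joined a Cy3 control with a Cy5 treated twin, so a block on complete pairs with dye rests on pair 4. The block over all arrays and the fit of brighter probes were added after seeing the data. Alternatives changed the arrays used, turning, dye, block, weights, scaling, missing-value filter and probe per gene.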

Additional observations from a re-analysis of the deposited data

Results flagged for a closer look

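Within the control group, TRPM7 stood far from the others on replicate 5 (1.89, against 0.72 to 0.97 on the other 4 arrays). Within the GnRHa group it did so on replicate 6, the turned array (-1.32, against -0.17 to 0.35). For LMNB1, GnRHa replicate 2 read 1.99 and the other 4 arrays with a value -1.92 to -0.95. The gap test behind these marks about 1 in 20 groups by chance alone.

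The effect of treatment differed between sides in rams for 20 probes. Named among them were TGFBR1 (interaction 3.11), LMNB1 (4.61) and EPAS1 (3.07). Between sexes on the left it differed for 3 probes, all unnamed.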

How the results depend on the processing

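The count of 47 became 0 with all columns as labelled, with Cy3 or Cy5 arrays alone, with male left or male arrays alone and with a replicate block on complete twin pairs. It became 3 without the turned array, 25 with that array's dye as labelled, 15 with no dye term, 101 with array weights and 1 with brighter probes only. Leaving out 1 array gave 0 to 96. The replicate block over all arrays gave 40, of which 16 were shared, and other centring, scaling, filters and random blocks 33 to 70. The side interaction count of 20 became 0 with all columns and with no dye term, 5 without the turned array or with values on all male left arrays, 3 with dye as labelled, 8 in male arrays, 4 without the animal block, 7 with twin pair as a random block, 46 with array weights, 9 after quantile normalization and 1 with brighter probes. Leaving out 1 array gave 5 to 25. The sex interaction count of 3 became 0 with all columns, dye as labelled or brighter probes, 1 without the turned array, 6 without the animal block, 7 with twin pair as a random block or array weights, 10 with the replicate block over all arrays and 5 after centring. Leaving out 1 array gave 1 to 17. The right count of 4 became 0 with all columns, no dye term, the replicate block over all arrays or brighter probes, 1 in male arrays and 2 with values on all male left arrays. In ewes it was 0 in every fit run, with 269 to 785 probes at an unadjusted p under 0.05.

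Signs turned for genes that had not passed. With the replicate block on complete pairs, which rests on pair 4, SMAD5 gave 0.0688, SPRY2 -0.0685, SLC1A3 0.13, SLC1A2 0.24, GFAP 1.00, NR3C1 0.64, HSD11B1 -0.47, GRIA1 0.22, AQP4 0.26 and SMAD4 0.0788. With the replicate block over all arrays AQP4 gave 0.00757. Cy5 arrays alone gave 0.11 for RPS6, 0.22 for RPS15A, -0.45 for EEF1D, 0.0535 for JUN, -0.0460 for PFKM, 0.0757 for GRIA2, 0.30 for AQP4, 0.27 for TGFB2 and 0.14 for ACVR2A. All columns as labelled gave 0.0793 for HSPA5, 0.20 for NR3C1 and 0.0696 for JUN. The mean of all probes gave -0.15 for HSD11B1. Apart from fits with fewer arrays, the causes were not tested. Signal over background was not analysed here, so dim probes cannot be called present or absent.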
